A study of Ovis aries with 30 samples.

Results

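CD3D and CD3E are genes of the T cell antigen receptor, and LCK is the gene of a kinase that acts on it. They were measured by 5 array probes in the epicardial adipose tissue (EAT) of 30 sheep. All probes that the array names for these genes were taken: 2 for CD3D, 2 for CD3E and 1 for LCK, out of 15008 probes and 989 gene names in all. All 5 were bright enough to be tested, as were 12872 probes of the whole array. The EAT, the fat on the surface of the heart, came from 8 Control fetuses at term, 6 CORT fetuses at term, 7 Control lambs aged 2 weeks and 9 CORT lambs aged 2 weeks. The ewes of the CORT fetuses received cortisol at 1 mg/kg/day from gestational day 115 to term, and those of the CORT lambs 0.5 mg/kg/day from the same gestational day. By the study's methods the lower dose was given overnight only, whereas the higher one belongs to a model of continuous infusion, so the groups differ in schedule as well as dose. The ewes of both Control groups received none, and no fetus or lamb was itself treated. The lambs were born naturally and the infusion of their ewes ended at delivery, so the CORT lambs had been without it for their whole postnatal life. The study's methods describe black-faced ewes and a pair of twins in each group of lambs, which the array labels do not mark, so not every lamb need be independent.

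T cells recognise peptides through a receptor whose antigen-binding chains, alpha with beta or gamma with delta, cannot signal by themselves. CD3D and CD3E are subunits of the CD3 complex that carries the signal through the membrane, together with CD3G and the zeta chain CD247. LCK is the tyrosine kinase that phosphorylates the CD3 tails when the receptor is engaged. Fat depots hold resident T cells beside macrophages and adipocytes. In sheep, as in other ruminants, gamma-delta T cells make up a large share of the T cells of the young animal. Glucocorticoids such as cortisol are known to kill immature T cells in the thymus. In RNA from whole tissue, fewer T cells and less RNA per T cell cannot be told apart.

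The probe bases are shown because they decide how independent the probes are. The array's records place the CD3D probes at base 1047 (probe 1) and base 1077 (probe 2) of the transcript, so they overlap. Within each gene, probe 1 is the probe with the higher mean over the 30 arrays. The stretch that both CD3D probes read is given in capitals. The CD3E probes start at base 1242 (probe 1) and base 1085 (probe 2), 157 bases apart, and share no base. Their first 30 bases are given, and the LCK probe, at base 1347, is given whole.
CD3D probes 1 and 2, shared stretch: TCTTTAGTACCCATTTCCCTGTATAGAAGG
CD3E probe 1, first 30 bases: gatggtcatttgtagctccatgaatgtgct
CD3E probe 2, first 30 bases: tattccacctacctttctctgtttctagct
LCK: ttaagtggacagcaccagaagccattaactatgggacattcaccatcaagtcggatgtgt
The CD3D probes have 30 of their 60 bases in common, so they are not independent measurements of the gene, whereas the CD3E probes are separate stretches of 1 transcript. The array files give no genome position for any of the 5. In the sheep assembly ARS-UI_Ramb_v3.0, CD3E, CD3D and the CD3G gene (LOC443398) follow each other directly on chromosome 15, and LCK lies on chromosome 2.

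All levels below are log2 intensities after background correction and quantile normalization of the 30 arrays together. An offset of 50 was added to the intensities, which compresses the differences of dim probes. CD3D probe 1 and both CD3E probes were well above background on all 30 arrays. CD3D probe 2 reached this on 27 arrays and LCK on 21, so LCK was the dimmest and the least certain of the 5. Its unnormalized foreground ran from 62.7 to 142 over the 30 arrays, against local backgrounds whose array medians lay between 34 and 46. CD3E probe 1 ran from 108 to 747 on the same scale. No spot of the 5 probes was saturated. The fat genes LPL and FABP4 were well above background on all 30 arrays, and ADIPOQ is not among the named genes.

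Control fetuses had the highest mean level of CD3D and CD3E, by either probe, and the other 3 groups lay close together. CD3E probe 1 measured 8.41 ± 0.74 (SD, n = 8) in Control fetuses, with a lowest value of 6.92, a median of 8.42 and a highest of 9.38. In CORT fetuses it measured 7.85 ± 0.51 (SD, n = 6), from 7.08 over a median of 7.80 to 8.54. The Control lambs had 7.88 ± 0.46 (SD, n = 7), from 7.35 over a median of 7.88 to 8.56. The CORT lambs had 8.03 ± 0.28 (SD, n = 9), from 7.67 over a median of 8.05 to 8.47. All 4 groups overlapped, and the Control fetuses held both the highest and the lowest animal of the 30. CD3E probe 2 put the groups in the same order, with means of 7.70 ± 0.53, 7.33 ± 0.33, 7.37 ± 0.36 and 7.43 ± 0.32 (SD) in Control fetuses, CORT fetuses, Control lambs and CORT lambs.

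CD3D probe 1 measured 7.40 ± 0.38 (SD, n = 8) in Control fetuses, from 6.70 over a median of 7.41 to 7.95. In CORT fetuses it measured 7.11 ± 0.28 (SD, n = 6), from 6.81 over a median of 7.00 to 7.57. The Control lambs had 7.20 ± 0.24 (SD, n = 7), from 6.83 over a median of 7.20 to 7.59, and the CORT lambs 7.24 ± 0.23 (SD, n = 9), from 6.94 over a median of 7.22 to 7.51. Here too every group overlapped every other. CD3D probe 2 had means of 7.30 ± 0.37, 6.96 ± 0.26, 6.92 ± 0.29 and 6.97 ± 0.27 (SD) in the same order of groups. The overlapping CD3D probes parted in 1 animal: CORT lamb 1 was the highest of its group by probe 1, at 7.51, and the lowest by probe 2, at 6.56.

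LCK varied less than the CD3 genes over the 30 animals on this compressed scale and kept no clear order of groups. Within the CORT lambs, though, its SD exceeded those of probe 1 of CD3D and of CD3E. LCK measured 6.79 ± 0.22 (SD, n = 8) in Control fetuses, from 6.46 over a median of 6.87 to 7.05. CORT fetuses had 6.67 ± 0.18 (SD, n = 6), from 6.47 over a median of 6.65 to 6.91, and Control lambs 6.72 ± 0.19 (SD, n = 7), from 6.49 over a median of 6.70 to 7.09. CORT lambs had 6.80 ± 0.29 (SD, n = 9), from 6.41 over a median of 6.68 to 7.24. For each of the 3 genes, the means of neighbouring groups in the order of levels lay closer together than the larger SD of the groups concerned.

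**Figure D1:**
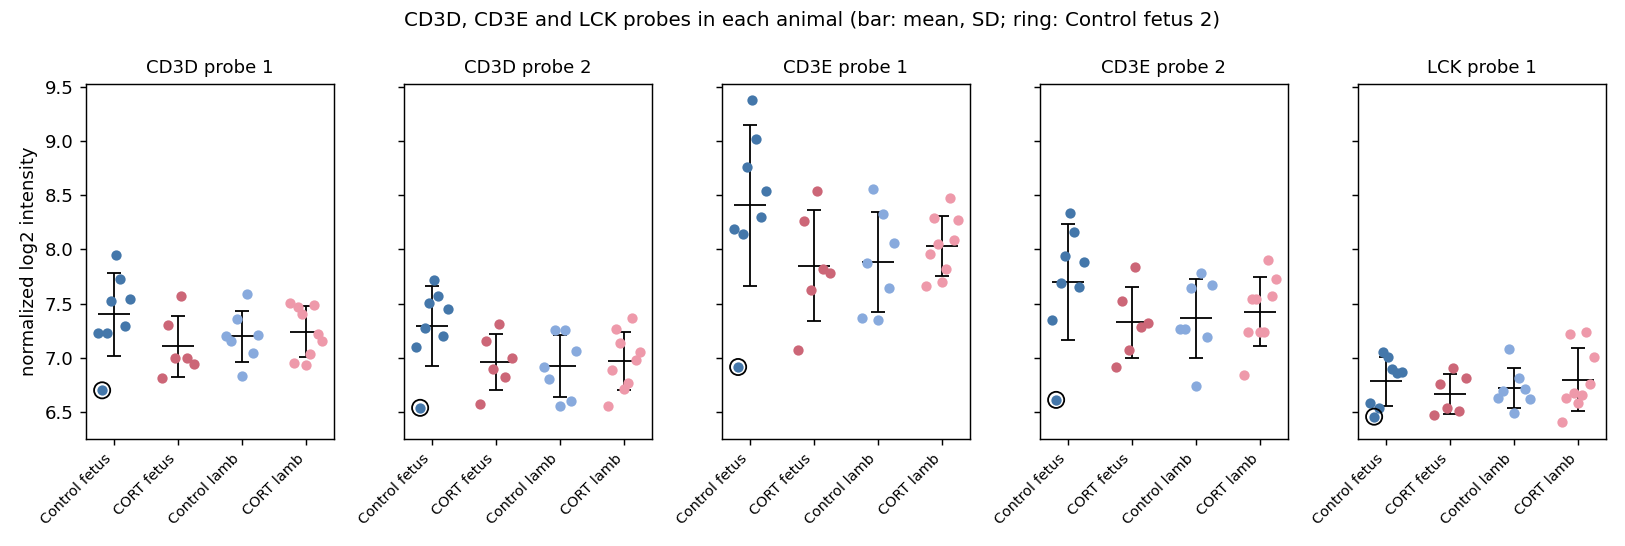
Normalized log2 intensity (vertical axis) of the 5 probes in each of the 30 animals, by group; each point is an animal, the bar with whiskers is the mean ± SD, and a ring marks Control fetus 2. The Control fetuses spread widest in both CD3E probes, from 6.92 to 9.38 in probe 1, and Control fetus 2 is the lowest of its group on all 5 probes.

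Of the 20 combinations of a probe and a group, none held an animal that stood apart by Dixon's test, although single animals moved the differences between groups. Without Control fetus 5, for example, the age difference of CD3D probe 1 went from -0.20 to -0.12. The animals at the ends of the groups were largely the same from gene to gene. Control fetus 2 was the lowest Control fetus on all 5 probes, CORT fetus 1 the lowest CORT fetus on all 5 and Control lamb 4 the lowest Control lamb on all 5. CORT fetus 4 was the highest CORT fetus on all 5 probes, Control fetus 5 the highest of its group on 4 and CORT lamb 7 the highest of its group on 4.

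Control fetus 2 also stood apart in a gene of another tissue. TNNC2, the calcium-binding troponin of fast skeletal muscle, measured 17.2 in this fetus and between 6.90 and 7.55 in the other Control fetuses. Its myoglobin (MB), at 14.8, lay within the range of 13.0 to 15.2 of the Control fetuses. It was also the lowest Control fetus in 9 of 14 tested genes of the pan-leukocyte, myeloid and MHC class II lists, with a mean level over the 14 of 7.65 against 8.00 to 8.21 in the others. The part of the muscle RNA or of these leukocyte genes in the low T cell values of Control fetus 2 was not tested, and each comparison that uses the fetus is given with and without it. Without Control fetus 2, the lowest Control fetus measured 8.14 for CD3E probe 1 and 7.23 for CD3D probe 1. MB varied more among the lambs, from 9.61 to 16.9 in Control lambs and from 11.1 to 15.8 in CORT lambs. Over the 30 animals, its deviations from the group means had a Pearson r of 0.01 with CD3D, -0.21 with CD3E and -0.20 with LCK. The part of muscle RNA in the T cell levels of the lambs was not tested.

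The RNA of a thymus or a lymph node taken with the fat was looked for in the genes the array names. CD1B, which presents lipids on thymocytes and dendritic cells, was well above background on 0 of 30 arrays, and its level stayed between 6.00 and 6.44 throughout. CCR9, a homing receptor of thymocytes, was likewise well above background on none. The list of thymocyte and thymic stroma genes had 4 tested members, GATA3, CD1D, CCL25 and LEF1. All 4 had lower means in CORT than in Control fetuses (median -0.11), none at an adjusted p under 0.05. Between the ages CD1D and LEF1 had lower means in Control lambs (limma adjusted p = 0.00746 and 0.0322) and none rose, against 21.3% and 20.3% of all probes. LEF1 (r = 0.55 with CD3E) was well above background in 5 of 8 Control fetuses, 1 of 6 CORT fetuses, 0 of 7 Control lambs and 3 of 9 CORT lambs. Its lower mean therefore sets values against the background and is not read as a fall. In the lambs LEF1 was higher in CORT than in Control animals, by 0.20 (SE 0.07; limma unadjusted p = 0.00912, adjusted p = 0.9997). An unadjusted p under 0.05 in that direction was reached by 1.64% of all probes. The part of these thymocyte genes in the T cell levels was not tested. RAG1, RAG2, DNTT and PTCRA, which define thymocytes, are not among the array's named genes and were not measured here. CR2, a complement receptor of B cells and follicular dendritic cells, was at 8.93 in CORT lamb 7, against 7.34 in the next CORT lamb. CORT lamb 7 was also the highest CORT lamb for CD3E (8.47) and LCK (7.24). It was high in leukocyte genes in general: it was the highest CORT lamb in 12 of the same 14 genes, with a mean level of 9.21 against 8.79 in the next. ITGB2, an integrin subunit of all leukocytes, stood at 10.5 in it against 9.09 in the next CORT lamb, DQA1 at 11.3 and DRB1 at 11.7. The mean level of the 14 genes ran from 8.16 to 8.77 in the Control lambs. In the CORT fetuses CR2 was highest in CORT fetus 5, at 8.47, whose CD3E probe 1 value of 7.82 lay in the middle of its group. CD40, the other B cell gene measured, ranged from 6.87 to 7.73 over the 30 animals. B cell RNA was read from CR2 and CD40 alone, and its part in the T cell levels was not tested.

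The animals that were high in one of the 3 genes tended to be high in the others, least closely within the CORT lambs where CD3D was concerned. Across the 30 animals, with each value taken as its deviation from the group mean, CD3D and CD3E (probe 1 of each) had a Pearson r of 0.86 and a Spearman rho of 0.79. CD3E and LCK had r = 0.76 and rho = 0.84, and CD3D and LCK r = 0.62 and rho = 0.66. Permutation p-values for these 3 relations, from 100000 permutations within groups, were 1e-05 for CD3D with CD3E and for CD3E with LCK, the smallest the permutations can give, and 0.00048 for CD3D with LCK. The adjusted values over the 3 relations were 1.5e-05, 1.5e-05 and 0.00048 for r. For rho the p-values were 1e-05, 1e-05 and 0.00035, adjusted to 1.5e-05, 1.5e-05 and 0.00035. Without Control fetuses 2 and 5, the animals farthest from the median, r was 0.77, 0.77 and 0.56 for CD3D with CD3E, CD3E with LCK and CD3D with LCK.

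The genes of each pair share the array and therefore its RNA quality and labelling. Each animal has its own array, so these cannot be told apart from the T cell content of the sample. The relation was recomputed within each of the 4 array slides, which takes out differences between slides only. CD3E and LCK correlated at r between 0.62 and 0.83 in every slide. CD3D and CD3E correlated at 1.00 and 0.98 in the fetal slides, and at 0.44 and 0.93 in the lamb slides. CD3D and LCK correlated at 0.84 and 0.64 in the fetal and at 0.43 and 0.76 in the lamb slides. The slide with 0.44 and 0.43 is the one that holds CORT lamb 1. Within the 9 CORT lambs r was 0.43 for CD3D with CD3E, 0.38 for CD3D with LCK and 0.93 for CD3E with LCK, and in the other 3 groups these pairs had r between 0.67 and 0.99. The 2 probes of CD3E had an r of 0.93 over the 30 animals and those of CD3D 0.83, so CD3D probe 2 ran closer to CD3E probe 2 (r = 0.95) than to its overlapping partner.

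**Figure D2:**
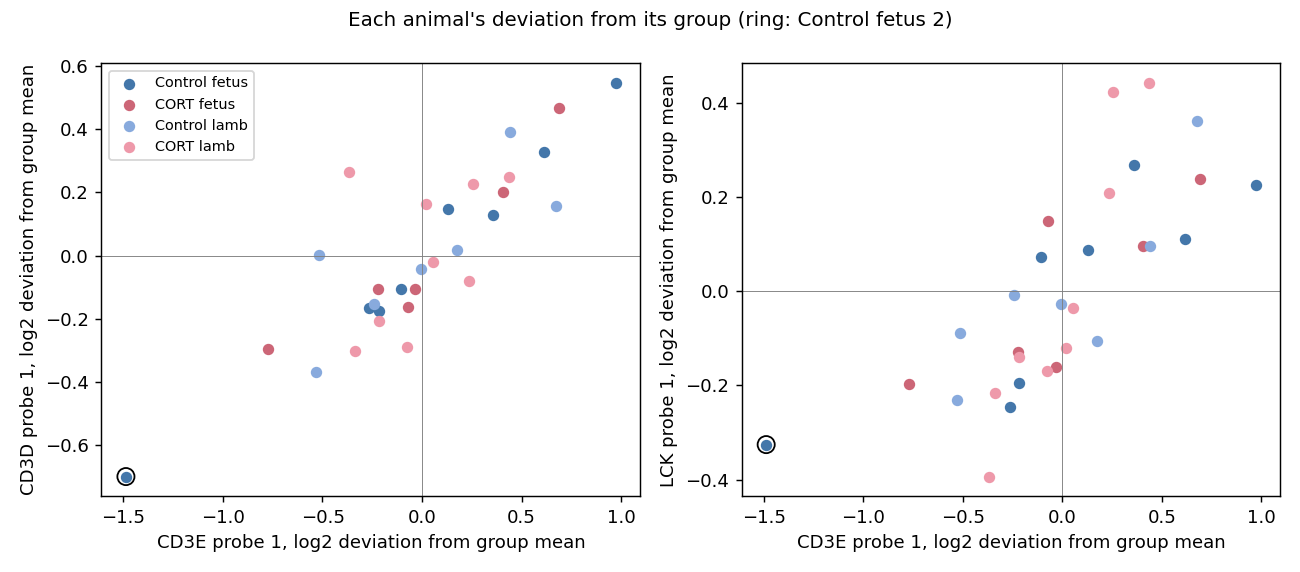
Deviation of each of the 30 animals from its group mean, in log2 units, for CD3E probe 1 (horizontal axis) against CD3D probe 1 (left) and LCK (right), coloured by group, with a ring on Control fetus 2. The points rise together, with r = 0.86 on the left and 0.76 on the right, and CORT lamb 1 lies apart from the other points on the left, high in CD3D for its CD3E.

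The named genes whose deviations ran closest to these 3 were in part other T cell genes. For CD3E, the 5 closest of 845 named genes were CD3D (r = 0.86), LCK (0.76), the cyclin CCNA2 (0.71), the histone variant H2AZ1 (0.68) and the sterol reductase TM7SF2 (0.63). For CD3D they were CD3E, the T cell receptor alpha chain (0.66), CCNA2 (0.65), H2AZ1 (0.64) and LCK. For LCK they were CD3E, NFKB (0.67), CD247 (0.65), the MHC class II gene DQA1 (0.64) and the endothelial nitric oxide synthase NOS3 (0.62). These values are a description over 30 animals that share slides. Those of CCNA2 with CD3D and CD3E, and of H2AZ1 with both, ranged from at least 0.02 to at most 0.97 between slides. With LCK, NFKB ranged from -0.15 to 0.87 and DQA1 from 0.16 to 0.92. Among all 12805 probes compared, named or not, LCK ranked 39 for CD3D and CD3D ranked 81 for LCK. CD3G, the gene beside CD3D, ran less closely with CD3E (r = 0.34), and the brightest T cell receptor delta probe hardly at all (r = 0.05).

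The effect of maternal cortisol was compared first in the lambs. CORT lambs and Control lambs did not differ detectably in any of the 3 genes. The difference was 0.15 for CD3E probe 1 (SE 0.17, 95% interval -0.21 to 0.51), 0.04 for CD3D probe 1 (SE 0.11, interval -0.19 to 0.28) and 0.08 for LCK (SE 0.12, interval -0.18 to 0.33). Each had an adjusted p of 1 in limma, and the unadjusted p over the 5 probes ran from 0.391 to 0.721. Exact two-sided permutation tests over the 11440 ways to divide these lambs gave p = 0.425, 0.713 and 0.559 for CD3E, CD3D and LCK. No probe of the array had an adjusted p under 0.05 in either direction (0% higher and 0% lower). An unadjusted p under 0.05 was reached by 211 probes with a higher (1.64%) and 247 with a lower mean (1.92%) in CORT lambs, and none of the 5 was among them. Within slide 3 the difference in CD3E probe 1 was 0.20 and within slide 4 it was 0.06. For CD3D probe 1 these were 0.20 and -0.11, so its sign differed between slides. Without CORT lamb 7, the lamb with the high leukocyte genes, the difference was 0.02 for LCK and 0.10 for CD3E probe 1.

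In the fetuses all 5 probes had lower means in CORT than in Control animals, but none passed the test. The difference was -0.55 for CD3E probe 1 (SE 0.32, 95% interval -1.24 to 0.13), a fold of 0.681. It was -0.29 for CD3D probe 1 (SE 0.17, interval -0.66 to 0.07), -0.33 for CD3D probe 2 (SE 0.16, interval -0.68 to 0.01), -0.38 for CD3E probe 2 (SE 0.23, interval -0.86 to 0.11) and -0.12 for LCK (SE 0.11, interval -0.35 to 0.11). In limma each had an adjusted p of 1, and the unadjusted p ran from 0.0582 to 0.295. Exact permutation tests over 3003 divisions gave p = 0.141 for CD3E probe 1, 0.14 for CD3D probe 1 and 0.306 for LCK. Of the 6 CORT fetuses, 5 lay below the mean of the Control fetuses in CD3E and CD3D and 4 in LCK. No probe on the array passed the adjusted threshold here (0% in each direction), and an unadjusted p under 0.05 was reached by 148 lower (1.15%) and 157 higher probes (1.22%).

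The lower means in CORT fetuses were found within both fetal slides. For CD3E probe 1 the difference was -0.35 within slide 1 and -0.76 within slide 2, and for CD3D probe 1 it was -0.13 and -0.45. LCK differed by -0.07 and -0.16. Without Control fetus 2, the difference grew to -0.77 for CD3E probe 1 (SE 0.24, 95% interval -1.29 to -0.25) and -0.39 for CD3D probe 1 (SE 0.14, interval -0.70 to -0.09). The unadjusted limma p was then 0.00685 and 0.0145, and 0.129 for LCK, with exact permutation p-values of 0.0157, 0.0315 and 0.15. All adjusted p remained at 0.997, and in that fit an unadjusted p under 0.05 was reached by 2.32% of all probes with a lower and 1.67% with a higher mean. Both probes of each CD3 gene were among the lower ones and LCK was not. Control fetus 2 was the lowest Control fetus on all 5 probes, and Dixon's test did not set it apart on any of them. Leaving it out could therefore only lower the differences, whatever the cause of its values. Other omissions moved them the other way, to -0.40 for CD3E probe 1 without CORT fetus 1 and to -0.22 for CD3D probe 1 without Control fetus 5.

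**Figure D3:**
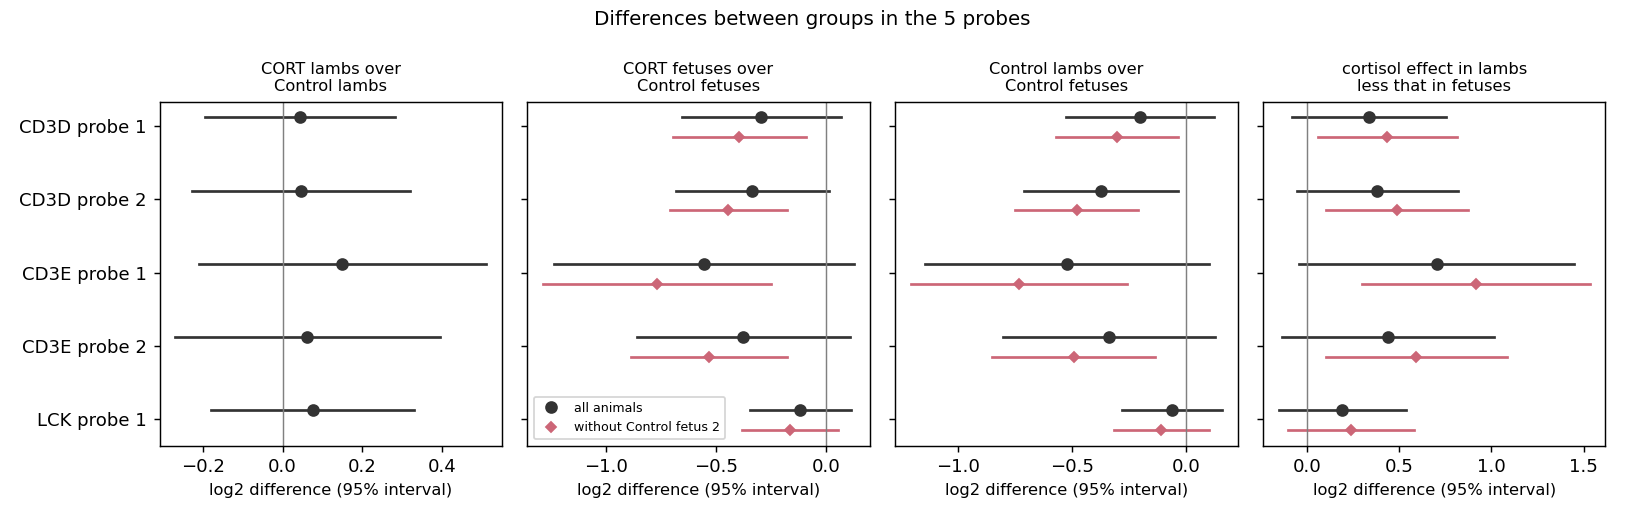
Log2 difference (horizontal axis) with its 95% interval for the 5 probes in the 4 comparisons, with all animals (circles) and without Control fetus 2 (diamonds). With all animals, every interval of the lamb and fetal comparisons and 4 of 5 of the age comparison span 0; the fetal and age estimates are all below 0 and move further down without Control fetus 2.

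The difference in the lambs, CORT minus Control, exceeded that in the fetuses by 0.71 for CD3E probe 1 (SE 0.36, 95% interval -0.04 to 1.45), 0.34 for CD3D probe 1 (SE 0.21, interval -0.08 to 0.76) and 0.19 for LCK (SE 0.17, interval -0.15 to 0.54). All had an adjusted p of 1 in limma, with unadjusted p of 0.0626, 0.111 and 0.261, so a difference between the ages in the response was not shown. Without Control fetus 2 the unadjusted p was 0.005 for CD3E, 0.0244 for CD3D and 0.161 for LCK, with an adjusted p of 0.999 for each. That fetus was the lowest of its group on all 5 probes, so leaving it out could only raise these differences. On the whole array 0% of probes passed the adjusted threshold in this comparison, in either direction and in both fits. An unadjusted p under 0.05 was reached downwards by 0.971% and upwards by 1.08% of the probes with all animals, and by 1.27% and 1.68% without Control fetus 2. The doses and the infusion schedules differed between the ages, so age and dose cannot be told apart in it.

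Between term and 2 weeks of age, comparing Control animals only, the 3 genes had lower means in the lambs, and CD3E passed the test only when Control fetus 2 was left out. With all animals CD3E probe 1 differed by -0.52 (SE 0.29, 95% interval -1.15 to 0.10), a fold of 0.697, with an adjusted p of 0.173 in limma. CD3D probe 1 differed by -0.20 (SE 0.15, interval -0.53 to 0.12; adjusted p = 0.316) and LCK by -0.06 (SE 0.10, interval -0.28 to 0.16; adjusted p = 0.671). Of the 7 Control lambs, 6 lay below the fetal mean in CD3E and CD3D and 5 in LCK. Exact permutation tests over 6435 divisions gave p = 0.132, 0.243 and 0.573. CD3D probe 2 was nearest to the threshold with -0.37 (SE 0.16), an adjusted p of 0.072 and an unadjusted p of 0.0323. An unadjusted p under 0.05 in this direction was found for 24.8% of all probes. On the whole array 21.3% of probes were lower and 20.3% higher in the lambs with an adjusted p under 0.05, and 0 of the 5 probes were among them. The Control fetuses and the Control lambs lay on different slides, so slide and age cannot be told apart in this comparison.

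Control fetus 2 was the lowest of its group on all 5 probes, so leaving it out could only lower the differences between the ages. Without it, CD3E fell in the lambs by both of its probes. Probe 1 differed by -0.73 (SE 0.22, interval -1.21 to -0.26; adjusted p = 0.0146 in limma) and probe 2 by -0.49 (SE 0.17; adjusted p = 0.0268). CD3D was split between its probes, at -0.48 (adjusted p = 0.00622) for probe 2 and -0.30 (adjusted p = 0.0667) for probe 1. LCK stayed at -0.11 (adjusted p = 0.41). In that fit 21.7% of all probes were lower at an adjusted p under 0.05, so 3 of the 5 probes joined a large share of the array. Leaving out any other animal gave no adjusted p under 0.05 for any of the 5.

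**Figure D4:**
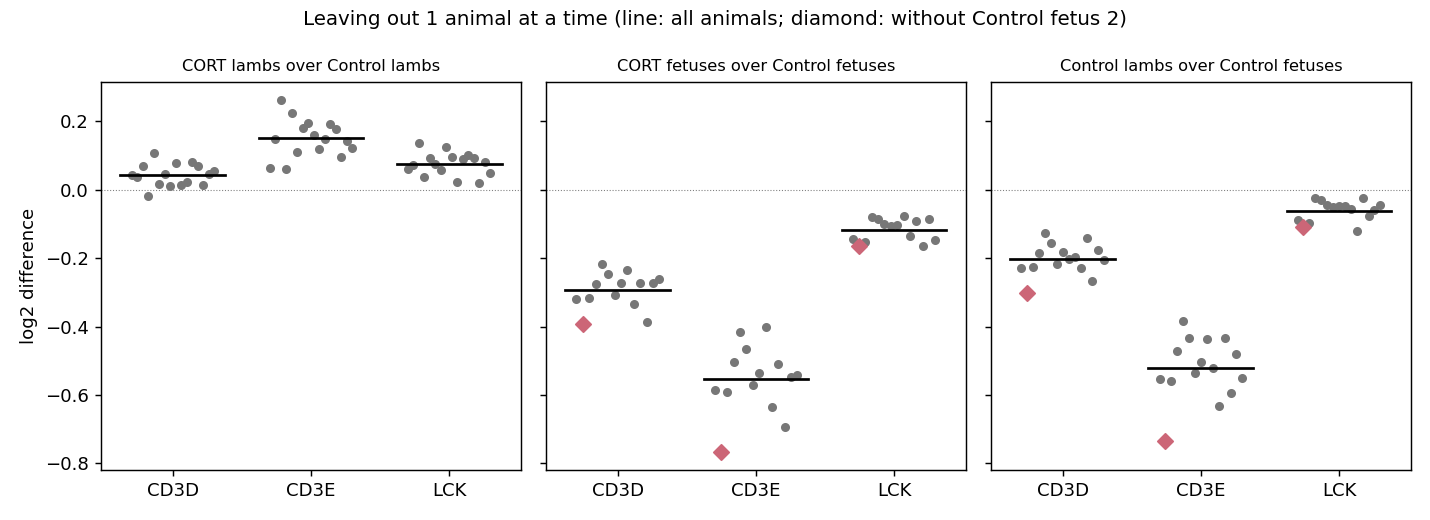
Log2 difference (vertical axis) of CD3D, CD3E and LCK (probe 1 of each) in the lamb cortisol, fetal cortisol and age comparisons when 1 animal at a time is left out; each point is a fit without 1 animal, the line is the fit with all, and the diamond is the fit without Control fetus 2. Without Control fetus 2 the CD3E difference moves to -0.77 in the fetuses and to -0.73 between the ages, farther than without any other animal.

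The other genes of the receptor did not all follow CD3D and CD3E. Of the 9 genes listed for the receptor complex, 8 were tested, CD3D and CD3E included, each by its brightest probe. None of the 8 had an adjusted p under 0.05 in either cortisol comparison. In the fetuses 6 of the 8 had lower means, and the median difference of the 8 was -0.21 against -0.01 over all probes tested. In the lambs 4 of the 8 had lower means and the median was 0.01. Between the ages 6 of the 8 had lower means and the median was -0.17 against -0.01 over all probes, with 2 that fell and none that rose. Over the whole array 21.3% of probes fell and 20.3% rose in that comparison, so 2 of 8 that fell is near the background.

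The 2 that fell between term and 2 weeks were CD247 and the T cell receptor alpha chain. CD247, the zeta chain, measured 7.17 ± 0.21 (SD, n = 8) in Control fetuses and 6.81 ± 0.18 (SD, n = 7) in Control lambs, a difference of -0.35 (SE 0.10; adjusted p = 0.00814). The alpha chain, the antigen-binding chain of most conventional T cells, measured 9.71 ± 0.57 and 8.95 ± 0.58 (SD), a difference of -0.76 (SE 0.27; adjusted p = 0.0323). Both remained under the threshold without Control fetus 2, at adjusted p = 0.00629 and 0.0167. CD3G, a CD3 subunit like CD3D and CD3E, measured 7.05 ± 0.46 in Control fetuses and 7.05 ± 0.39 in Control lambs, a difference of 0.00 (SE 0.20). The gamma chain differed by 0.15 (SE 0.08; adjusted p = 0.168) and the brightest delta chain probe by -0.14 (SE 0.13; adjusted p = 0.407). Of the 14 delta probes tested, 1 had an adjusted p under 0.05, that at base 325, with -0.31 (SE 0.12; adjusted p = 0.0425 in limma). Over all probes 21.3% were lower at that threshold.

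In the fetal cortisol comparison the alpha chain differed by -0.30 (SE 0.26), the gamma chain by -0.17 (SE 0.10), CD247 by -0.10 (SE 0.11) and CD3G by 0.15 (SE 0.20). The brightest delta chain probe differed by -0.24 (SE 0.11), with an unadjusted p of 0.0434 and an adjusted p of 1 in limma. Of the 14 delta probes tested, 12 had lower means in CORT fetuses, and this was the only 1 with an unadjusted p under 0.05. Over all probes 1.15% were lower and 1.22% higher at that threshold. The 14 read records of the same chain, so they are not separate genes. Those at bases 262, 418, 393, 52 and 259 were well above background on only 9, 9, 3, 8 and 3 of 30 arrays. In the lambs the alpha chain, the gamma chain, CD247, CD3G and the brightest delta probe lay between -0.12 and 0.09. The array holds 26 probes for delta chain records and 15 for beta chain records, of which 14 and 5 were bright enough to be tested. The brightest beta chain probe, at base 256 of its record, ran the other way from CD3E with 0.33 (SE 0.32) in the fetal, -0.76 (SE 0.44) in the lamb and 0.90 (SE 0.38; adjusted p = 0.0665) in the age comparison. A second tested probe at base 256 moved likewise, by 0.13, -0.32 and 0.41. The tested beta probes at bases 309, 222 and 182 did not, with differences between -0.24 and 0.08. That at base 182 had the signs of CD3E, at -0.11, 0.04 and -0.24. The probes at base 256 were well above background on 18 and 12 of 30 arrays, and those at bases 309, 182 and 222 on 24, 11 and 3. The brightest was so in 5 of 8 Control fetuses, 4 of 6 CORT fetuses, 5 of 7 Control lambs and 4 of 9 CORT lambs. The beta chain therefore gave no single direction, and its probes were dim on many of the arrays.

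**Figure D5:**
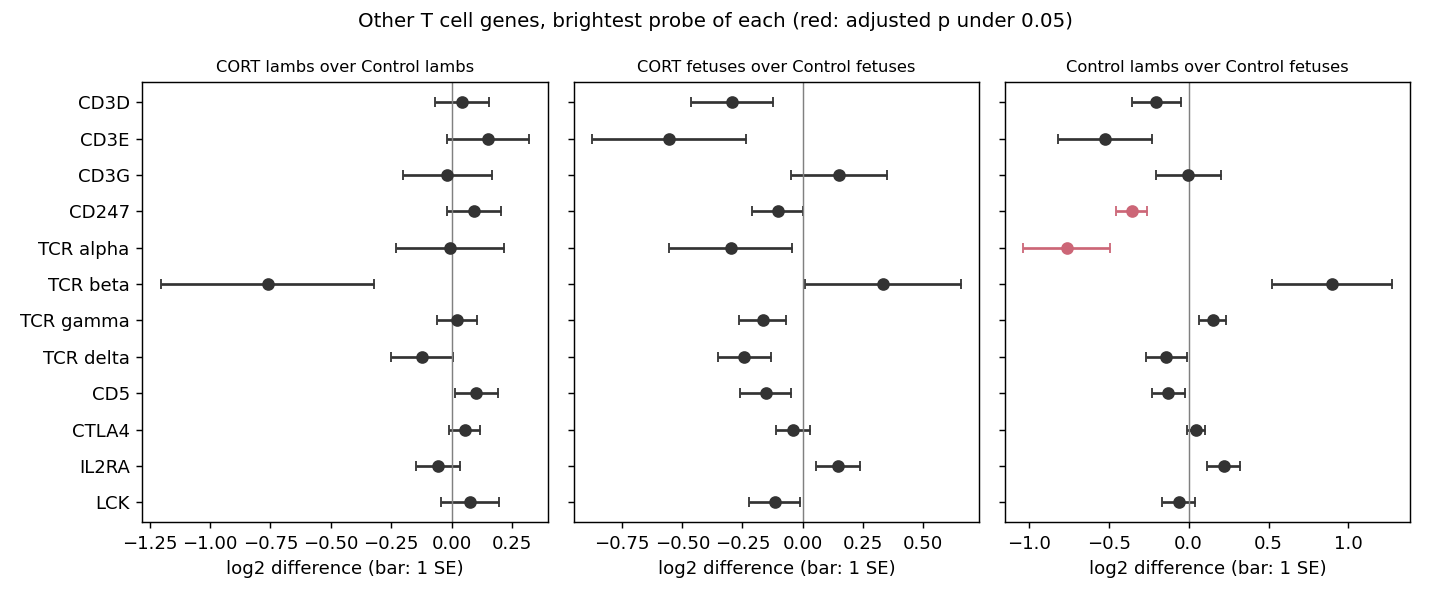
Log2 difference (horizontal axis, bar 1 SE) of the T cell genes tested, each by its brightest probe, in the lamb cortisol, fetal cortisol and age comparisons; red marks an adjusted p under 0.05. CD247 and the alpha chain are the genes marked, both in the age comparison, at -0.35 and -0.76.

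Among 16 genes of the T cell surface and costimulation, 3 were tested and none passed the adjusted threshold in any comparison. CD5, a scavenger receptor of T cells and some B cells, measured 6.79 ± 0.24 and 6.64 ± 0.13 (SD) in Control and CORT fetuses and 6.67 ± 0.16 and 6.77 ± 0.19 (SD) in Control and CORT lambs. The inhibitory receptor CTLA4 lay between 6.52 and 6.66 in all 4 group means. IL2RA, the interleukin-2 receptor alpha chain of activated and regulatory T cells, had group means from 6.77 to 6.99. CD4, CD28 and CD40LG were too dim to be tested, and CD4 and CD28 were well above background on 0 of 30 arrays. Of the 16 genes listed for signalling next to the receptor, LCK alone was among the named genes. Of 19 T cell and NK effector genes 4 were tested, and none had an adjusted p under 0.05 in either cortisol comparison. Between the ages GNLY rose by 1.54 (SE 0.29; limma adjusted p = 0.000462) and IL10 by 0.16 (SE 0.06; adjusted p = 0.037). None of the 4 fell at an adjusted p under 0.05, against 20.3% higher and 21.3% lower over all probes. XCL1, the brightest of the 4, had a lower mean in Control lambs, by -0.48 (SE 0.20; limma adjusted p = 0.0696). IFNG differed by -0.10 (SE 0.08; limma adjusted p = 0.321). IL10 was well above background on 14 of 30 arrays, and GNLY was highest in CORT lamb 7, at 11.8.

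The MHC class II genes DRB1 and DQA1, of antigen-presenting cells, rose by 1.75 (SE 0.24) and 1.15 (SE 0.19) from Control fetuses to Control lambs, and ITGB2 rose by 0.67 (SE 0.16). Of 9 macrophage and myeloid genes 3 rose and none fell, against 20.3% and 21.3% of all probes. ITGAL, the partner of ITGB2 in the integrin LFA-1, was well above background in 8 of 8 Control fetuses and 1 of 7 Control lambs, so no fold is given for it. In the fetal cortisol comparison none of these genes had an adjusted p under 0.05. UCP1, the uncoupling protein of brown fat, fell by 4.19 (SE 0.35) on the log2 scale between the ages, so the tissue around the T cells was itself different, and the part of this in the T cell levels was not tested.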

How the data were processed

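Agilent sheep 8 x 15k arrays, 1 per animal and labelled with Cy3, were scanned by the authors and read with Agilent Feature Extraction 10.1.1.1. The deposited scanner files give the mean foreground and median background intensity of each of 15744 spots. Array medians of the foreground lay between 132 and 240, and between 70.4% and 83.5% of spots were well above background. The number of arrays limits the precision.

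In limma 3.58.1 (R 4.3.3), the 30 arrays were corrected together (normexp, offset 50), quantile normalized, and averaged over spots of a probe on the log2 scale. Outlier spots were left out. A probe was tested where it exceeded 77 negative control spots (95th percentile) by 10% on at least 6 arrays. Moderated tests (lmFit, eBayes), two-sided, with Benjamini-Hochberg adjustment over 12872 probes, used the animals of the groups compared, or all 30 for the difference between cortisol effects. The threshold was an adjusted p of 0.05. The fit was tested on simulated data.

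Groups came from the titles. Gene names came from the array's symbols and descriptions and, by accession or gene identifier, from ARS-UI_Ramb_v3.0, which named 1639 probes. All probes of CD3D, CD3E and LCK are reported, with the brightest probe of each other gene, every tested gene of 3 T cell lists and the 5 genes most like each member. CD1B, CCR9, CR2, CD40, TNNC2, MB, ITGB2, ITGAL, DRB1, DQA1, UCP1 and the other comparison genes outside that rule were chosen after their values were seen. The members, lists and tests were chosen with earlier results of these data known.

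The authors also deposited a log2 matrix, made by them with limma. Its lamb columns tracked the scanner values (Spearman rho at least 0.999) and served as an alternative. Its fetal columns did not (rho between -0.01 and 0.00), so they were not used.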

Additional observations from a re-analysis of the deposited data

Results flagged for a closer look

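None of the 20 combinations of a CD3D, CD3E or LCK probe with a group held an animal that stood apart by Dixon's ratio (its gap to the nearest animal over the range of the group). The same search over 72 combinations of other genes with a group found 8. Chance alone flags about 1 in 20, but TNNC2, CR2, ITGB2, DRB1 and others of these genes were chosen after their values were seen. The 8 can therefore not be set against that rate. TNNC2 stood apart in Control fetus 2 (ratio 0.937, at 17.2) and in CORT lamb 9 (ratio 0.761, at 10.2 against 7.65 in the next lamb). CR2 and ITGB2 stood apart in CORT lamb 7 (ratios 0.615 and 0.630), the lamb with the highest CD3E and LCK of its group. CD3G was high in CORT fetus 4 (ratio 0.665, at 7.79 against 7.20), which was also the highest CORT fetus on all 5 probes of CD3D, CD3E and LCK. The brightest T cell receptor delta probe was high in Control fetus 4 (ratio 0.527, at 8.41 against 7.93). DRB1 was low in Control fetus 2 (ratio 0.760, at 6.87 against 8.48). CTLA4 was low in CORT fetus 6 (ratio 0.641, at 6.25 against 6.50).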

How the results depend on the processing

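CD3D, CD3E and LCK (probe 1 of each) kept an adjusted p above 0.05 under every alternative run with all animals (the lowest, 0.0518, was that of CD3E between the ages with array weights), and kept their sign in the fetal, the age and the interaction comparison. The alternatives were the software-corrected intensity, cyclic loess, 75th percentile scaling, other filters, array weights, slide as a block and, in the cortisol comparisons, normalization within the age and, in the lambs, the deposited matrix. The software-corrected intensity, without the offset, gave larger differences, in the fetuses -0.61 for CD3D, -0.72 for CD3E and -0.38 for LCK, between the ages -0.54, -0.60 and -0.19, in the lambs 0.18, 0.20 and 0.12, and for the lamb less the fetal difference 0.79, 0.93 and 0.50. CD3D probe 2 and CD3E probe 2 were then at -0.75 and -0.69 in the fetuses and -0.85 and -0.55 between the ages, 0.17 and 0.15 in the lambs, and 0.93 and 0.83 for the lamb less the fetal difference. In the lambs CD3D probe 1 turned to -0.030 and probe 2 to -0.024 with array weights. Leaving out 1 animal, the lamb difference ranged from -0.018 to 0.108 for CD3D probe 1, from -0.014 to 0.103 for CD3D probe 2 and from -0.042 to 0.136 for CD3E probe 2, with the sign turned for all 3 without Control lamb 4. CD3E probe 1 ranged from 0.062 (without Control lamb 4) to 0.263 (without Control lamb 3) and LCK from 0.021 (without CORT lamb 7) to 0.136 (without Control lamb 3). CD3D probe 2 also turned without Control lamb 6 and without CORT lamb 7. In the age comparison leaving out 1 animal gave -0.73 to -0.38 for CD3E probe 1, with the lowest value and the one call (adjusted p = 0.0146) without Control fetus 2. CD3D probe 2 passed between the ages with all 4 groups in the fit (adjusted p = 0.0453) and with array weights (adjusted p = 0.0185). The age difference ranged from -0.302 (without Control fetus 2) to -0.125 (without Control fetus 5) for CD3D probe 1 and from -0.121 (without Control lamb 3) to -0.023 (without Control lamb 4) for LCK, and the fetal difference of LCK from -0.165 (without CORT fetus 4) to -0.077 (without CORT fetus 1). The number of probes called in the fetuses was 0 to 1 when 1 animal was left out, with the 1 without CORT fetus 2. The causes were not tested.

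Replicate numbers are shared between groups without a stated link. Animals of the same number had deviations correlated above 0.1 in 5 of 7 lamb pairs, 3 of 6 fetal pairs and 1 of 7 pairs between the ages, and 4, 1 and 0 correlated best with their own number. With the replicate block CD3E probe 1 differed by 0.11 in the lambs, -0.55 in the fetuses and -0.50 between the ages, CD3E probe 2 turned to -0.00071 in the lambs, and 1 probe of the array was called in the fetuses. The offset and the brightness of LCK, below the background criterion on 9 of 30 arrays, limit what can be seen of that gene.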
